A study of Homo sapiens with 2 samples.

Results

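The enzymes described here make asparagine, aspartate, glutamine, arginine, proline, alanine and cysteine. The genes were ASNS, GOT1, GLUL, ASS1, ASL, ALDH18A1, PYCR1, GPT2 and CTH, 9 in all, grouped by what their products do. Every probe set that the array's annotation ties to exactly 1 of these genes was taken. This gave 14 probe sets for 8 genes, of 19775 genes named on the array in the same way. GPT2, the mitochondrial alanine aminotransferase, had no such probe set in the annotation used here and has no value below.

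Both groups were cultures of CL1-5, an established human lung adenocarcinoma line with high invasiveness, kept in serum-containing medium. The treated culture received 0.11 µM of analogue 3 for 24 h. This compound is an analogue of desmosdumotin C whose label names iodo, tripropyl and methoxy substituents, and its dose equals the ED50 the submitters give for its toxicity to these cells. The other culture received the solvent DMSO for 24 h. Labelled cRNA made from total RNA was hybridised to 1 Affymetrix whole-transcriptome array for each culture, so the differences are without replicates and no test was made. With 1 culture each, the compound and a difference between cultures or hybridisations cannot be told apart, nor can fewer cells of a kind and less RNA per cell.

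A mammalian cell can build these amino acids from glucose-derived carbon and from nitrogen passed on by glutamate, glutamine and aspartate. When amino acids run short or the endoplasmic reticulum is stressed, the transcription factor ATF4 is translated more and activates many of the genes for their synthesis and uptake. ASNS, which transfers nitrogen from glutamine to aspartate to make asparagine, is among its best-studied targets. In human cells ATF4 acts on ASNS through paired elements close to the start of transcription, a composite C/EBP-ATF element that reads TGATGNAA and a neighbouring element that reads GTTACA.

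The DNA in front of the genes that differed most, or that carry those letters, is shown because the elements can be read in it directly. The sequences are RefSeq's, on GRCh38.p14, and each covers the 250 bases before an annotated start of transcription, 5′ to 3′ along the gene's own strand. Capitals mark the letters searched for. The ASNS stretch lies at chr7:97872409-97872658 on the minus strand, the ASS1 stretch at chr9:130444457-130444706 on the plus strand, and the GOT1 stretch at chr10:99430625-99430874 on the minus strand.
ASNS: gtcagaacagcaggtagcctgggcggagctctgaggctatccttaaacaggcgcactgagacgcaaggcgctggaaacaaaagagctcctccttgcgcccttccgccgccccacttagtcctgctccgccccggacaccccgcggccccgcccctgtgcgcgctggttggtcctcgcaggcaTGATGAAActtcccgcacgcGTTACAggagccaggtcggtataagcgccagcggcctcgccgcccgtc
ASS1: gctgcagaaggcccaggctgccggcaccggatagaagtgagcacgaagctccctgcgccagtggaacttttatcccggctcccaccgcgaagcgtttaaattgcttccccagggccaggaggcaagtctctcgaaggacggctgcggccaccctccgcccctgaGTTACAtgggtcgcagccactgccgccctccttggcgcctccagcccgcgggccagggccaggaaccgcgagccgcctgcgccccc
GOT1: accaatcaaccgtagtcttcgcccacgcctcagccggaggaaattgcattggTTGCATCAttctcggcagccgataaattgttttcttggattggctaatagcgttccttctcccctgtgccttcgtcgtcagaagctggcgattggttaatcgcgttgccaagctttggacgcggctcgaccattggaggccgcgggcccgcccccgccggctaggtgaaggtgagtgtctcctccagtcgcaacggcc

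Both elements were found in front of the upstream of the ASNS starts that had a window. TGATGNAA, as TGATGAAA, began 68 bases before that start and GTTACA 48 bases before it. The window of the second such ASNS start held neither. The annotated ASNS locus reaches further upstream, to chr7:97928441, and no window covered a start there. GOT1 carried TGATGNAA on the opposite strand, printed above as TTGCATCA, starting 198 bases before its start. ASS1 carried GTTACA starting 86 bases before the upstream of its annotated starts, and the letters CACGTG, the E-box read by MYC and related factors, starting 71 bases before its second start. Both strands were searched, and none of the matches overlapped another. Of all 35116 windows of the same length, 3.14% held TGATGNAA, 5.59% held GTTACA and 6.34% held CACGTG. Of the members, 7 genes had windows, 10 in all, and 2 of these held each motif. ALDH18A1 was the other gene with CACGTG, and none of the 3 motifs was in the windows of ASL, GLUL or CTH. A match in these letters is a description of the sequence and is not evidence of binding.

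Intensities below are the deposited GCRMA values on a linear scale, as multiples of the array median. A value under a floor of 8 times the median (log2 3) was raised to it before a difference was taken, and genes with both values under it were left out as not measured. A gene is represented by its brightest probe set, and its log2 difference is analogue 3 minus DMSO. Levels of different genes are not compared, because probe sets differ in how strongly they bind.

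ASNS and ASS1 transcripts were 7.68-fold and 7.69-fold lower with analogue 3, and CTH was 2.43-fold lower. PYCR1 and GOT1 were lower by 1.61-fold and 1.53-fold. ASL was 1.23-fold lower, while ALDH18A1 and GLUL were 1.08-fold and 1.06-fold higher. Thus 3 of 8 measured members were at least 2-fold lower, against 3.92% of all 8523 measured genes, and 0 of 8 were at least 2-fold higher, against 3.74% of all measured genes. At a threshold of 1.5-fold 5 of the 8 were lower, against 12.9% of all measured genes, and 0 were higher, against 9.6%. In all, 6 of the 8 lay below 0, against 55.5% of all measured genes. The median log2 difference was -0.65 over the 8 members and -0.05 over all measured genes. The members were chosen with earlier results of these data known, so these shares describe the list and test nothing.

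**Figure D1:**
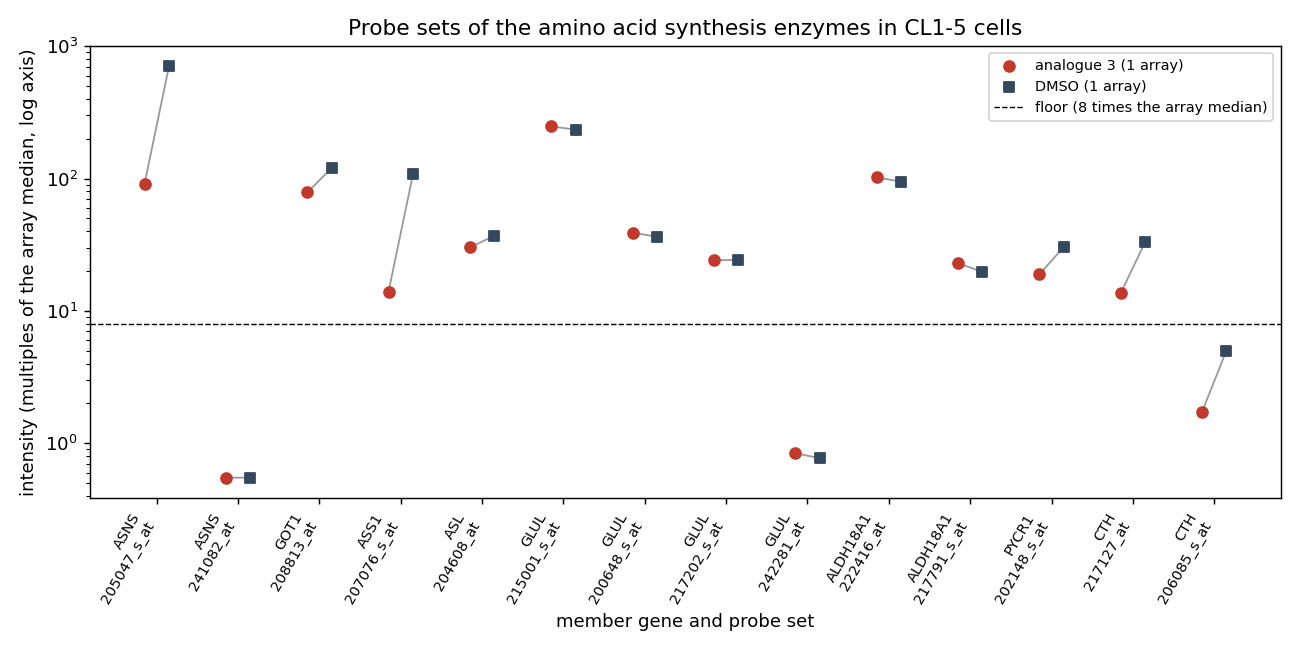
Intensity of each of the 14 probe sets (multiples of the array median, log axis) on the analogue 3 array (red circles, left of each pair) and the DMSO array (dark squares, right), 1 array each; the dashed line is the floor of 8. The pairs of ASNS (91.6 and 703.6) and ASS1 (14.01 and 107.7) slope most steeply, and 3 probe sets lie under the floor on both arrays.

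In the asparagine and aspartate branch, ASNS had an intensity of 91.6 with analogue 3 and 703.6 with DMSO, a log2 difference of -2.94. The treated array was thus far below the control array while still well above the floor. Among the 7737 genes that reached the floor on each array, its difference was 5th from the lowest. Genes under the floor with analogue 3 have only a bound and cannot be ranked against it. A second ASNS probe set read 0.549 with analogue 3 and 0.548 with DMSO, under the array median on both. It thus carried no signal with which to check the first, which is of the _s_at type that can match several transcripts. GOT1, the cytosolic aspartate aminotransferase, read 78.5 with analogue 3 and 120.2 with DMSO (log2 difference -0.61). It was lower by much less than ASNS. Of all measured genes, 11.8% had a lower floored difference than GOT1.

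In the arginine branch the 2 enzymes differed from each other. ASS1, which joins citrulline and aspartate and is the limiting step of arginine synthesis from citrulline, read 14.01 with analogue 3 and 107.7 with DMSO (log2 difference -2.94). ASL, which splits the product of ASS1 into arginine and fumarate, read 30.2 with analogue 3 and 37.0 with DMSO (log2 difference -0.29). By the same ranking ASS1 was 4th from the lowest, while 29.2% of measured genes had a lower floored difference than ASL. ASS1 has many processed pseudogenes and was read by 1 probe set of the type that can match several transcripts, so its value is uncertain between these copies. With a floor of 32 times the median, its treated value lay under the floor and its log2 difference was bounded at -1.75.

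In the transsulfuration branch CTH, which releases cysteine from cystathionine, read 13.6 with analogue 3 and 33.0 with DMSO (log2 difference -1.28). A second CTH probe set read 1.72 with analogue 3 and 5.01 with DMSO, both under the floor, with a log2 difference of -1.54 before the floor was applied. The 2 probe sets had the same sign. Under a floor of 32 the CTH difference shrank to -0.05 and it no longer counted as lower, because its control value lies just above that floor.

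In the proline branch PYCR1, the mitochondrial enzyme of the last step, read 18.9 with analogue 3 and 30.3 with DMSO (log2 difference -0.68). ALDH18A1, which starts the path from glutamate, read 102.1 with analogue 3 and 94.9 with DMSO in its brighter probe set (log2 difference 0.11). Its other probe set read 23.0 with analogue 3 and 19.7 with DMSO (log2 difference 0.22). The first enzyme of the path was thus slightly higher and the last one lower.

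GLUL, glutamine synthetase, was close to equal on both arrays in every probe set. The brightest read 248.2 with analogue 3 and 234.3 with DMSO, the second 39.1 with analogue 3 and 36.2 with DMSO, and the third 24.19 with analogue 3 and 24.24 with DMSO. The log2 differences of the brighter 2 were 0.08 and 0.11, and that of the third was -0.003. A further GLUL probe set read 0.84 with analogue 3 and 0.77 with DMSO, under the array median.

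The technical error that these arrays can show is the disagreement between probe sets of 1 gene. Over 2874 genes with at least 2 probe sets that reached the floor on each array, the SD of the log2 difference of a single probe set was 0.23. It was 0.25 where the dimmer probe set lay under 32 and 0.19 where it did not. The differences of ASNS, ASS1 and CTH are several times this spread, those of GOT1 and PYCR1 are about 3 times it, and those of ASL, ALDH18A1 and GLUL are near or below it. This spread leaves out variation between cultures, RNA preparations and hybridisations. Among 82 genes at least 2-fold lower in their brightest probe set and read by a second one, 79 were also below 0 in the second and 48 were at least 2-fold lower there.

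**Figure D2:**
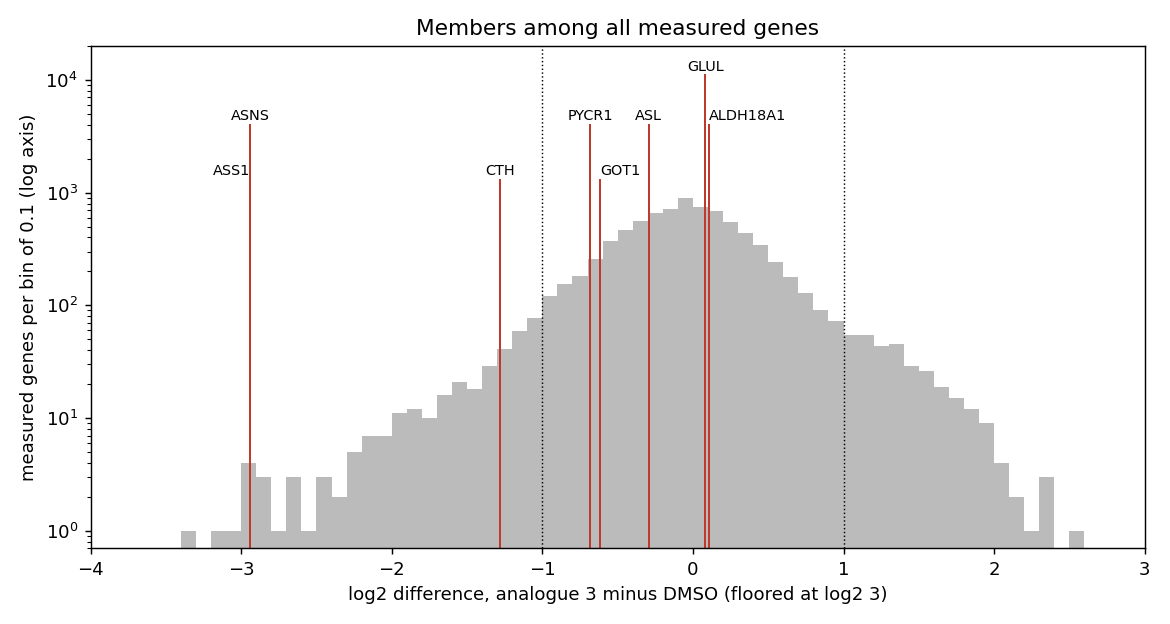
Histogram of the floored log2 difference, analogue 3 minus DMSO, of the 8523 measured genes in bins of 0.1 (log count axis), with a red line for each of the 8 members; dotted lines mark 2-fold. ASNS and ASS1 share a place at -2.94 in the sparse left tail, CTH lies just past 2-fold at -1.28, and GLUL and ALDH18A1 lie in the bulk.

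By the closeness of their log2 differences, the 5 genes most like ASNS among the 7737 that reached the floor on each array were ASS1, DDIT3, CMPK2, NIBAN1 and PHGDH, over 2 arrays only. DDIT3, which encodes the stress factor CHOP, read 23.3 with analogue 3 and 174.3 with DMSO (log2 difference -2.90). PHGDH, the first enzyme of serine synthesis, read 21.9 with analogue 3 and 157.6 with DMSO (log2 difference -2.85). The differences of CMPK2 and NIBAN1 were -2.99 and -2.86. Likeness over 2 arrays is likeness of a single difference and nothing more.

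Among related synthesis enzymes, PHGDH and PSAT1 of serine synthesis were lower. This list and those below were chosen with earlier results of these data known. Of 4 measured genes for serine and glycine synthesis, 2 were at least 2-fold lower, against 3.92% of all measured genes. All 4 lay below 0, against 55.5% of all measured genes, with a median log2 difference of -1.30. PHGDH was given above, and PSAT1, the serine aminotransferase, read 192.7 with analogue 3 and 685.6 with DMSO (log2 difference -1.83, and -1.69 in its other probe set). SHMT2, which turns serine into glycine in mitochondria, had a log2 difference of -0.76, with -0.80 and -0.76 in its other probe sets. PSPH, the last enzyme of serine synthesis, read 316.3 with analogue 3 and 366.3 with DMSO in its brightest probe set (log2 difference -0.21), but 36.9 with analogue 3 and 103.2 with DMSO in another (log2 difference -1.48). The PSPH probe sets thus disagree on whether it passes 2-fold. SHMT1 was under the floor on both arrays.

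Of 7 other measured synthesis and transamination genes, 2 were at least 2-fold lower, against 3.92% of all measured genes. The other 5 were neither lower nor higher by 2-fold, and the median log2 difference was -0.08. CBS, which makes the cystathionine that CTH splits, read 4.74 with analogue 3 and 42.5 with DMSO, at least 5.31-fold lower against the floor. It was measured only through the DMSO array, so that filter fixed its sign. A second CBS probe set read 4.07 with analogue 3 and 40.1 with DMSO. Both measured steps of transsulfuration were therefore lower. BCAT1, the cytosolic branched-chain aminotransferase, read 45.9 with analogue 3 and 161.0 with DMSO (log2 difference -1.81). All 4 BCAT1 probe sets had the same sign. GOT2, the mitochondrial counterpart of GOT1, had a log2 difference of 0.34, opposite in sign to GOT1. MTR, which makes methionine, had one of 0.40 in its brightest probe set but read 36.63 with analogue 3 and 36.64 with DMSO in the other. The remaining 2 named here were ASNSD1, at -0.32, and OAT, which links ornithine to the proline path, at -0.08.

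Most enzymes that use or break down the same amino acids differed by less than 2-fold, in both directions. Of 10 measured, 2 were at least 2-fold lower, against 3.92% of all measured genes, and 0 were at least 2-fold higher, against 3.74%. The other 8 were neither, and the median log2 difference was -0.17. ARG2, the mitochondrial arginase, read 25.3 with analogue 3 and 76.9 with DMSO (log2 difference -1.60), but its other probe set read 3.93 with analogue 3 and 4.96 with DMSO, below the floor on each. NAGS, which makes the activator of the urea cycle, had a log2 difference of -1.16. ASS1 of arginine synthesis and the arginine-splitting ARG2 were thus both lower, while ASL, whose step yields the arginine, had a log2 difference of -0.29. Among the rest of this list, CAD, which uses aspartate for pyrimidines, had a log2 difference of 0.51 and GFPT1 one of -0.49. ASRGL1, an asparaginase, had one of 0.45 and CDO1 one of -0.39. The urea cycle genes CPS1 and OTC and the liver arginase ARG1 were under the floor on both arrays.

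Transcripts of ATF4 and of factors around it were lower on the same array. Of 14 measured, 9 were at least 2-fold lower, against 3.92% of all measured genes. All 14 lay below 0, against 55.5% of all measured genes, and their median log2 difference was -1.51. The 14 include SESN2, ATF3, CHAC1 and NUPR1, which were measured only through the DMSO array, so that filter fixed their sign. With a floor of log2 5, 5 of 10 were at least 2-fold lower, against 135 of 5050 measured genes, and the median of the 10 was -1.04. ATF4 read 572.6 with analogue 3 and 1220 with DMSO (log2 difference -1.09). The difference in ATF4 transcript was thus smaller than that in ASNS, and the arrays say nothing of ATF4 protein, which is set mainly by translation. TRIB3, CEBPG and DDIT4, which encode a pseudokinase, a C/EBP partner of ATF4 and an mTORC1 inhibitor, had log2 differences of -2.20, -1.51 and -1.91. PPP1R15A, which restores translation after stress, had one of -1.85. SESN2, ATF3 and CHAC1 lay under the floor with analogue 3 and were at least 5.97-, 3.11- and 2.84-fold lower. CEBPB, at -0.98, just missed 2-fold, NUPR1 was at least 1.88-fold lower, and ATF5 and the stress kinase gene EIF2AK3 had log2 differences of -0.47 and -0.40. The amino-acid-sensing kinase gene EIF2AK4 had one of -0.19.

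Most measured carriers of the same substrates, a list that includes 3 mitochondrial ones, were lower. Of 12 measured, 7 were at least 2-fold lower, against 3.92% of all measured genes. The other 5 were neither lower nor higher by 2-fold, and the median log2 difference was -1.29. Without the _s_at and _x_at probe sets 4 of 8 passed 2-fold downward, against 247 of 5934 measured genes. The median of these 8 was -0.40, and with no floor the list median was -0.84 over 14. The 7 were carriers of the plasma membrane or a partner chain: SLC7A5 (log2 difference -2.16), SLC7A11, the cystine carrier (-1.82), SLC38A1 (-1.78), SLC3A2, the chain shared by SLC7A5 and SLC7A11 (-1.72), SLC7A1, the arginine carrier (-1.51), SLC1A5 (-1.08), and SLC1A4, which was at least 4.32-fold lower. SLC1A4 was measured only through the DMSO array, so that filter fixed its sign. SLC38A2, a glutamine and alanine carrier, read 859.1 with analogue 3 and 1310 with DMSO (log2 difference -0.61). The mitochondrial aspartate carriers SLC25A13 and SLC25A12 had log2 differences of 0.38 and 0.03, and the ornithine carrier SLC25A15 one of 0.33. All 3 mitochondrial carriers were thus equal or slightly higher. SLC1A1, a plasma membrane carrier of glutamate and aspartate, read 9.76 with analogue 3 and 7.98 with DMSO, just around the floor. It was measured only through the analogue 3 array, which likewise fixed its sign.

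**Figure D3:**
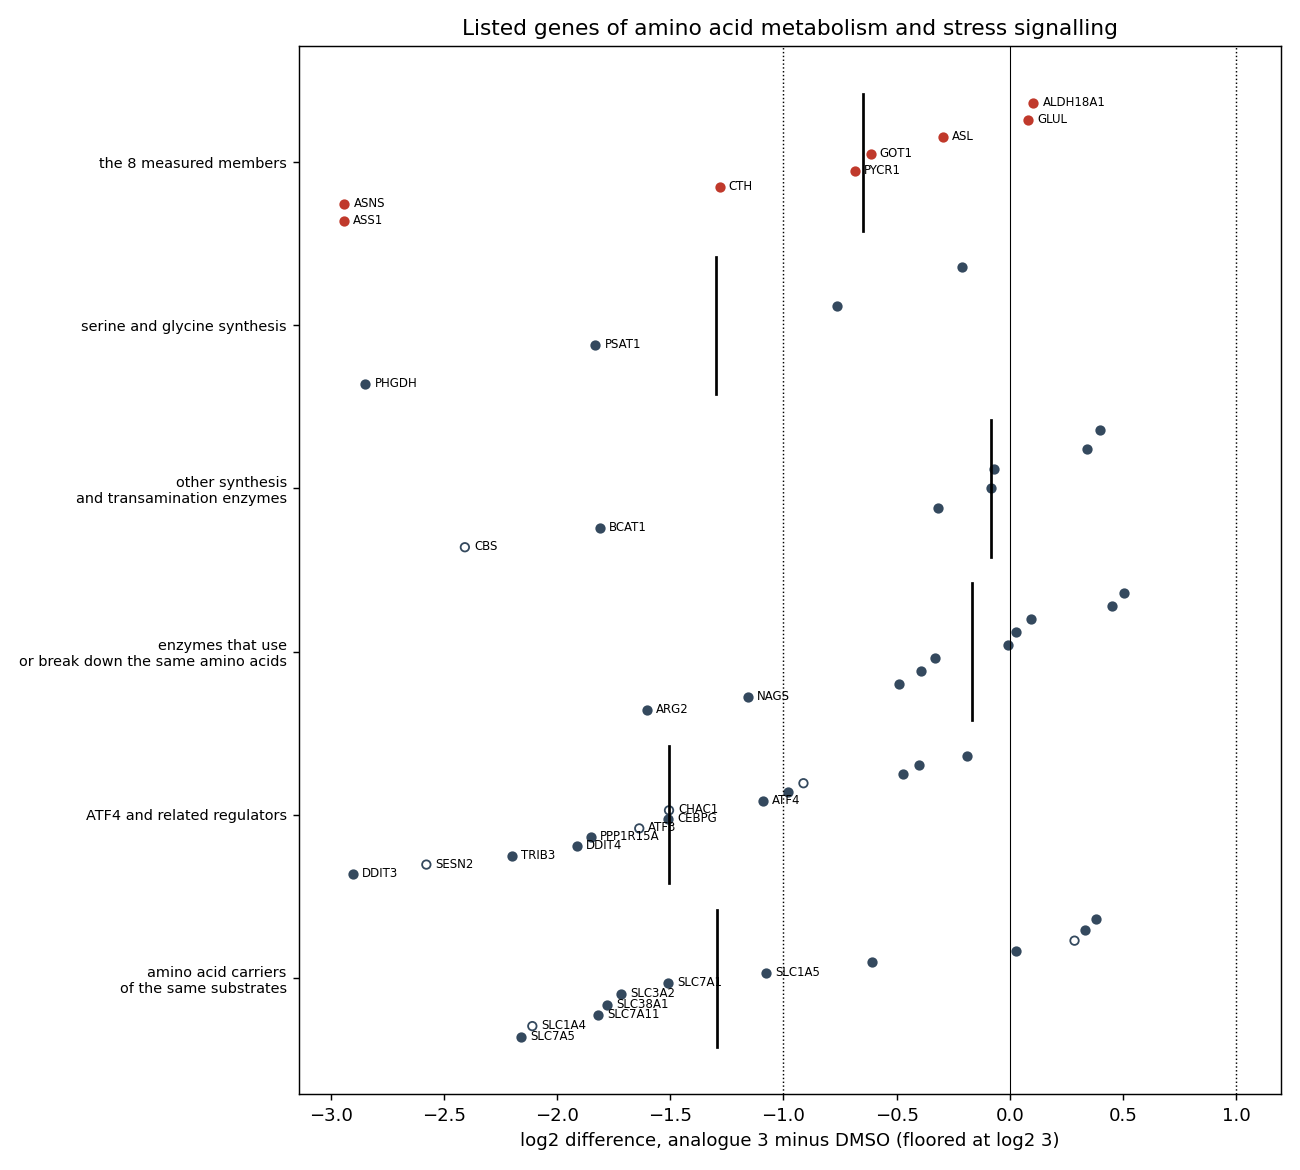
Floored log2 difference, analogue 3 minus DMSO, of each measured gene (points; open where 1 array lay under the floor) in the 8 measured members (red) and 5 related lists (dark); black bars are list medians and dotted lines mark 2-fold. List medians run from -1.51 for ATF4 and related regulators to -0.08 for the other synthesis enzymes, and no gene shown is 2-fold higher.

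On the analogue 3 array 26.0% of probe sets reached the floor, and on the DMSO array 26.8% did. The log2 differences of the 18 probe sets for hybridisation spikes ran between -0.14 and 0.17. For ACTB the signal at the 3′ end over that at the 5′ end was 10.0 with analogue 3 and 11.8 with DMSO, while for GAPDH it was 1.18 with analogue 3 and 1.21 with DMSO. Among epithelial markers, KRT8 read 77.8 with analogue 3 and 42.3 with DMSO (1.84-fold higher), and KRT18 457.9 with analogue 3 and 460.8 with DMSO. The other 4 of the 6 epithelial markers, KRT7, KRT19, EPCAM and CDH1, were under the floor on both arrays, as were all 4 lung epithelial markers. The mesenchymal marker VIM read 1868 with analogue 3 and 1883 with DMSO. All 4 leukocyte and all 5 fibroblast markers were under it too, and of 3 endothelial markers PECAM1 reached it, at 15.7 with analogue 3 and 11.4 with DMSO.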

How the data were processed

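The intensity values the authors deposited are GCRMA output (background correction by probe sequence, quantile normalization and summarisation), per the submitters' processing notes; the version is not given in the sources used here. Each column has a median of 1, which implies that values were divided by it, a step no label states. Gene names come from the platform annotation in GEO, where 41097 of the 54675 probe sets have exactly 1 gene symbol, of which 41043 matched a RefSeq gene number. With Python 3.11.15, values were log2-transformed, floored at log2 3 and subtracted, with 1 array per group and no test. A floor of log2 5, used in earlier work, was set for another scale than the deposited one, whose array median is 1. It was therefore kept only as an alternative. On the deposited scale 13.1% of probe sets with analogue 3 and 13.4% with DMSO reach it. The calling step was run on simulated data with noise set to the spread between probe sets of 1 gene. Such noise leaves out variation between cultures, RNA preparations and hybridisations, so the run cannot show how calls hold across cultures. All member probe sets are reported. From 5 related lists, the genes past 2-fold and up to 4 others by size are named, with the 5 genes nearest to ASNS; other genes named were chosen after their values were seen. Members and lists were chosen with earlier results of these data known. The number of arrays limits the precision.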

Additional observations from a re-analysis of the deposited data

How the results depend on the processing

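No paired analysis was possible because each group has 1 array, and for the same reason no array could be left out. Members at least 2-fold lower numbered 3 of 8. They were 1 of 4 when _s_at and _x_at probe sets were dropped, which leaves ASNS, ASS1, GLUL and PYCR1 unmeasured, 5 of 8 at 1.5-fold and 2 of 8 at 3-fold. With a floor of log2 5 they were 2 of 7 and the members' median turned to -0.21, by construction, since dim values are raised to the floor. Over all 8523 measured genes, 334 were lower and 319 higher. On the same genes these counts were 1099 and 818 at 1.5-fold, and 90 and 72 at 3-fold. The floor also changes how many genes are measured. With a floor of log2 5, 135 of 5050 genes were lower and 175 higher. With a floor of log2 1, 586 of 11158 were lower, and with no floor 724 of 19775. Without _s_at and _x_at probe sets, 247 of 5934 were lower and 226 higher. Of the other alternatives run (a floor of log2 1, no floor, centring, quantile normalization, loess removal, the median of probe sets), none moved a member count. ASNS ran from -2.997 to -2.907 over the settings that measured it, and no member at least 2-fold lower turned sign in any setting. Floors and thresholds cannot reverse a sign, and every setting reuses the same arrays, so this does not stand in for replicates. Among the related lists, a floor of log2 5 left 1 of 6 other synthesis genes and 1 of 8 genes of use or breakdown at least 2-fold lower. The genes of use or breakdown also had 1 of 7 without _s_at and _x_at probe sets and 1 of 10 at 3-fold. With no floor the median was -0.76 over 5 serine and glycine genes and -1.88 over the 14 ATF4 genes, as it was for these with a floor of log2 1. Dim signal limits the genes read near the floor, such as CTH and CBS.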
